A study of Mus musculus with 15 samples.

Results

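The enzymes described here belong to 4 families that oxidise or conjugate foreign and reactive compounds: the cytochromes P450 of the CYP families with numbers 1 to 4 (CYP), the flavin-containing monooxygenases (FMO), the glutathione S-transferases of the alpha, mu, omega, pi and theta classes (GST) and the aldehyde dehydrogenases (ALDH). Members were chosen by symbol: rows of the gene table whose symbol began with Cyp1 to Cyp4 and a letter, Fmo and a digit, Gst and the letter a, m, o, p or t, or Aldh and a digit. Symbols ending in -ps were left out, and the expected counts had to sum to at least 150 over all libraries. Of 24054 rows, 131 symbols fitted, 128 of them without the -ps ending, and 68 reached the minimum. These were 28 CYP, 5 FMO, 16 GST and 19 ALDH genes. A further 28 of the matching rows, all CYP, had 0 counts. Just inside the minimum were Cyp2t4 with 175 counts, Cyp2c44 with 178, Cyp2r1 with 185 and Gsto2 with 194. Just outside it were Cyp2b19 with 130.4 counts, Fmo6 with 88, Cyp4f37 with 77.7 and Cyp2g1 with 61.

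RNA-seq had been carried out on lungs of 15 female wild-type Balb mice, 5 in each of 3 groups. Saline mice were sham-sensitised and received an isotype control antibody. Mice of the OVA group were sensitised to ovalbumin (OVA) by the systemic, intraperitoneal route, challenged with the nebulised protein, and likewise received the isotype control. The anti-IL-4Ra group went through the same OVA procedure and received an anti-mouse-IL-4Ra mAb at 30 mg/kg, so all 3 groups carried an antibody and none was untouched. IL-4Ra is the receptor subunit through which IL-4 and IL-13 signal. The sources used here give neither the ages of the mice nor the times of dosing and of lung collection. The labels call the replicates biological, and p-values therefore refer to the spread between animals.

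As background, xenobiotic metabolism runs in steps. CYP and FMO enzymes add oxygen to a compound, with electrons that reach the CYP enzymes through the reductase Por, and so produce metabolites that may be more polar or more reactive. ALDH enzymes oxidise aldehydes to acids, and GST enzymes join electrophiles to glutathione before export. In the mouse lung much of the CYP activity lies in club cells, the secretory cells of the small airways, and Cyp2f2 is the enzyme that makes these cells sensitive to naphthalene. Some members have endogenous substrates instead, such as retinaldehyde for Aldh1a1, Aldh1a2 and Aldh1a3, and leukotriene B4 for Cyp4f18.

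Promoters are shown for the member with the most counts in the CYP family and in the GST family, for Gsta3, which had the smallest adjusted p of all members between OVA and saline, and for 2 of the 5 members that were higher with OVA. The sequences come from RefSeq on GRCm38.p6, a C57BL/6J reference and not the Balb genome, and run from 250 bases before to 50 bases after a start site, 5′ to 3′ on the strand of the gene. Capitals mark matches, on either strand, to 4 motifs: GCGTG (the core of the site of the aryl hydrocarbon receptor), TGACNNNGC (the antioxidant response element), TTCNNNNGAA (the spaced palindrome of STAT factors) and TGANTCA (the AP-1 site). The windows are chr7:27119705-27120004 on the plus strand for Cyp2f2, chr1:21240335-21240634 on the plus strand for Gsta3, chr3:108017924-108018223 on the minus strand for Gstm1 (the first listed of its start sites), chr19:47854723-47855022 on the plus strand for Gsto1 and chr8:72009577-72009876 on the minus strand for Cyp4f18.
Cyp2f2: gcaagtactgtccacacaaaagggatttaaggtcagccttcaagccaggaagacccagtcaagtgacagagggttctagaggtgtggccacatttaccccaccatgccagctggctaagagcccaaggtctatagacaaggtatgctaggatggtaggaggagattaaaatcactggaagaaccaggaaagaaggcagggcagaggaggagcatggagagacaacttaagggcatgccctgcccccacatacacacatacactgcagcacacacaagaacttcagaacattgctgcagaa
Gsta3: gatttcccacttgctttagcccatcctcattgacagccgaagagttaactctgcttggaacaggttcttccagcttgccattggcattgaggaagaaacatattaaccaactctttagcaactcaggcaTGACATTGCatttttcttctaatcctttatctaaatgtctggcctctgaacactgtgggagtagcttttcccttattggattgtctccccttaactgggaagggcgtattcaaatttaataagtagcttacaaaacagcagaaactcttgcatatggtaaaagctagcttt
Gstm1: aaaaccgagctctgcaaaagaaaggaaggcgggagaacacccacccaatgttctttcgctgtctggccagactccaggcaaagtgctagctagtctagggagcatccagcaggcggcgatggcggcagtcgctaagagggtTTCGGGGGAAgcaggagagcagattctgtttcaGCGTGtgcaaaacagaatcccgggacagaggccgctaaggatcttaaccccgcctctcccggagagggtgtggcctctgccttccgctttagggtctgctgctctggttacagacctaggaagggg
Gsto1: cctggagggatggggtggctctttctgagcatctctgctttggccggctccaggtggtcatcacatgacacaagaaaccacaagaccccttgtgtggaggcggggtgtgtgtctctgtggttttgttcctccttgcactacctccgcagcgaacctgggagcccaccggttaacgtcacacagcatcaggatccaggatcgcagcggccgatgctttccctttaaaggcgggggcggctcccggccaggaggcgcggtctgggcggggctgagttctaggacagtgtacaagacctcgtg
Cyp4f18: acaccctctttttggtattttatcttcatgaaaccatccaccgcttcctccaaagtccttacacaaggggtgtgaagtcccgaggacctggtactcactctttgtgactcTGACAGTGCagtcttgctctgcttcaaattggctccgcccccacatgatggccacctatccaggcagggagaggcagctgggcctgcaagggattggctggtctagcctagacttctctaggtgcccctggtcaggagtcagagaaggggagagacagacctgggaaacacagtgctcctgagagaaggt

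The Gsta3 window held 1 antioxidant response element match, TGACATTGC, and the Cyp4f18 window held another, TGACAGTGC, although Gsta3 was lower and Cyp4f18 higher with OVA. The Gstm1 window held TTCGGGGGAA and 1 GCGTG, and those of Cyp2f2 and Gsto1 held no match to the 4 motifs. The table gave 63 promoters for 52 of the 68 members. Among them 34.9% held GCGTG, 12.7% TGACNNNGC, 4.76% TTCNNNNGAA and 11.1% TGANTCA. Over all 32851 promoters of the same length the shares were 32.4%, 12.4%, 6.95% and 7.81%. A match is a run of letters and not evidence that a factor was bound.

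Expected counts per library summed to between 16774285 and 27570666 with saline, 10042825 and 14706131 with OVA and 12317805 and 16914475 with anti-IL-4Ra. The members took 0.632 to 0.988% of the counts of a saline library, 0.219 to 0.429% of an OVA library and 0.309 to 0.578% of an anti-IL-4Ra library. Surfactant and club cell markers of the lung were abundant, with Sftpc at a mean of 7696 CPM (counts scaled to a library of 1000000) and Scgb1a1 at 14353 CPM with saline. The share of Rn45s, the ribosomal RNA precursor, moved with the groups. It was 1.19 to 2.88% of the counts with saline and 4.31 to 12.4% with OVA, without overlap, and 1.65 to 12.4% with anti-IL-4Ra. Markers of fat differed between libraries. Their summed level was 1180 CPM in saline replicate 1 and 530.2 CPM in anti-IL-4Ra replicate 4, against 2.67 to 250.2 CPM in the other 13 libraries.

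With OVA the enzymes were mostly lower. Of 67 members tested, 28 (41.8%) were lower and 5 (7.46%) were higher in OVA than in saline lungs (edgeR quasi-likelihood test, Benjamini-Hochberg adjusted p under 0.05 over all genes). Of all 15905 genes tested, 17.8% were lower and 19.3% higher, 37.1% in all. The remaining member, Cyp4a12b, did not pass the filter on low counts and was not tested. The count minimum for members is a sum over all libraries. It therefore favours genes that are high with saline, whose libraries were larger than those with OVA. When every matching row with any count was admitted, 28 of 67 tested were lower. With a minimum of 500 counts, 27 of 59 were lower. The median log2 fold change of the members was -0.58, beside 0.02 over all genes. A change of at least 2-fold was found for 20 of the 28 lower members and for all 5 higher ones. The 5 libraries of one group did not overlap those of the other for 29 members, 24 of them lower and 5 higher among those called, whereas 26.6% of all genes were without overlap. In bulk lung RNA, fewer cells of a type and less RNA per cell cannot be told apart.

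The families differed in how many members were lower. In the FMO family 4 of 5 were lower and none was higher, with a median log2 fold change of -1.43. In the GST family 8 of 16 were lower and 1 was higher, with a median of -0.67. In the ALDH family 8 of 19 were lower and 3 were higher, with a median of -0.55 that became -0.21 without saline replicate 1. In the CYP family 8 of 27 were lower and 1 was higher, with a median of -0.50 that became -0.33 without saline replicate 2. These counts and medians describe the members and were not tested between families.

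When the log2 share of Rn45s was added to the fit as a covariate, 8 members were lower and none was higher, 1.67% and 3.06% of all genes being lower and higher in that fit. Of the 33 calls without the covariate 7 remained: Cyp2f2, Cyp4b1, Gsta3, Gstm1, Gstm2, Aldh2 and Aldh4a1. The eighth was Aldh3b2 (-4.15, adjusted p = 0.0398), which was at 8.31 CPM in saline replicate 1, the library with the most fat markers, and at 0.253 to 0.733 CPM in the other saline libraries. Without that library its change, in the fit with no covariate, was -0.03. The share of Rn45s did not overlap between these groups, so its part in the differences and that of OVA cannot be told apart.

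**Figure D1:**
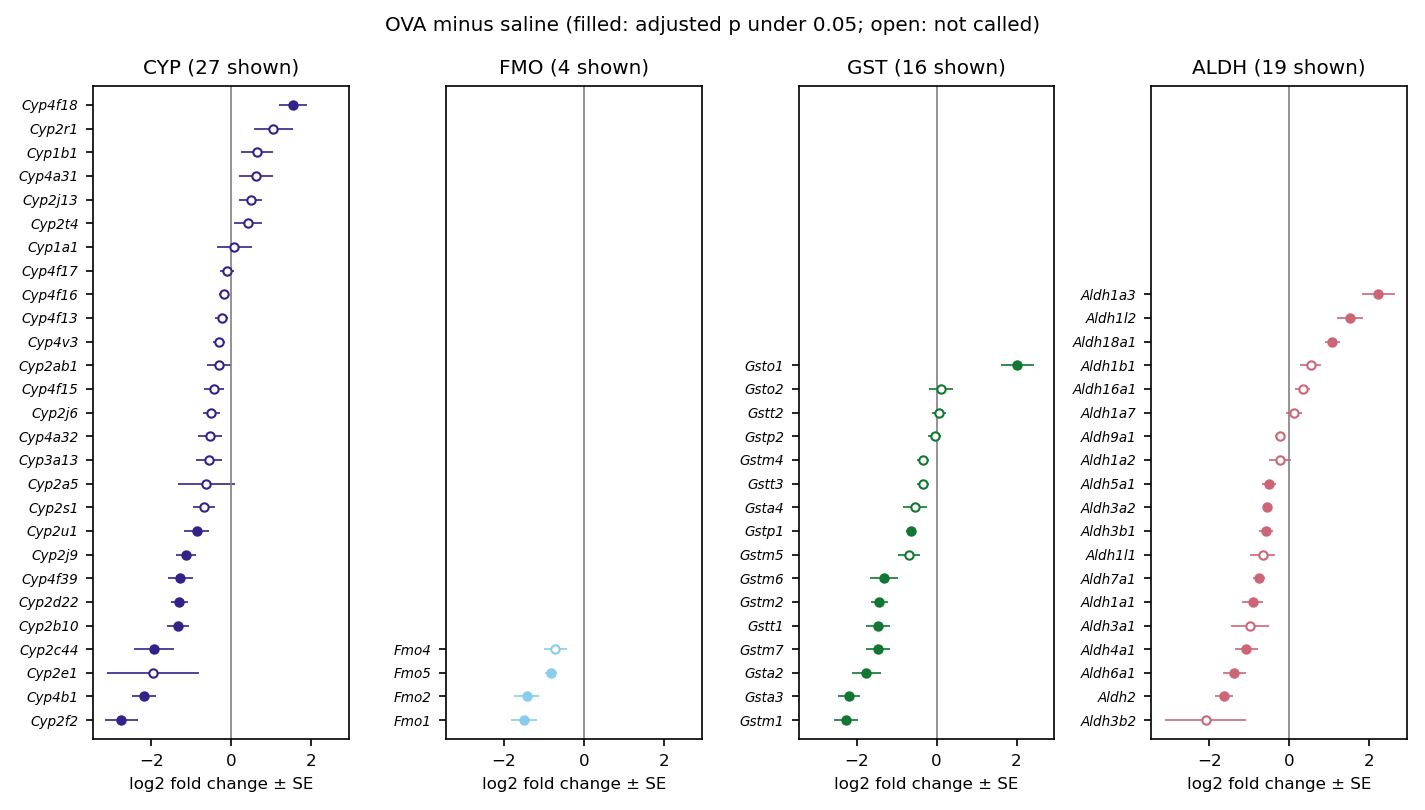
Log2 fold change (± SE) of 66 of the 67 members tested, OVA minus saline, by family. Filled points had an adjusted p under 0.05; the FMO points all lie below 0, and the 5 filled points above 0 are Cyp4f18, Gsto1, Aldh1a3, Aldh1l2 and Aldh18a1.

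Summed over the members of a family, the mean level was lower with OVA than with saline in each family. The CYP sum was 3472 ± 983 CPM with saline, 839 ± 260 with OVA and 1436 ± 626 with anti-IL-4Ra (mean ± SD, n = 5). The FMO sum was 1126 ± 97.8, 414 ± 142 and 500.1 ± 254 CPM in the same order. The GST sum was 914 ± 107, 493 ± 186 and 546 ± 62.2 CPM. The ALDH sum was 2097 ± 321, 1155 ± 267 and 1355 ± 178 CPM. Saline and OVA libraries did not overlap in the CYP, FMO and ALDH sums, and in the GST sum OVA replicate 3, at 790.1 CPM, lay above saline replicate 4, at 775 CPM. A single gene supplied much of the CYP sum: Cyp2f2 made up 67.1 ± 7.58% of the CYP counts with saline, 40.6 ± 7.49% with OVA and 52.9 ± 12.2% with anti-IL-4Ra. Without Cyp2f2 the CYP sum was 1116 ± 264 CPM with saline and 489 ± 112 with OVA. Gstm1 made up 36.7 ± 1.00% of the GST counts with saline and 13.6 ± 2.22% with OVA, whereas Fmo2 held 64.5 ± 4.41% and 65.0 ± 2.54% of the FMO counts.

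**Figure D2:**
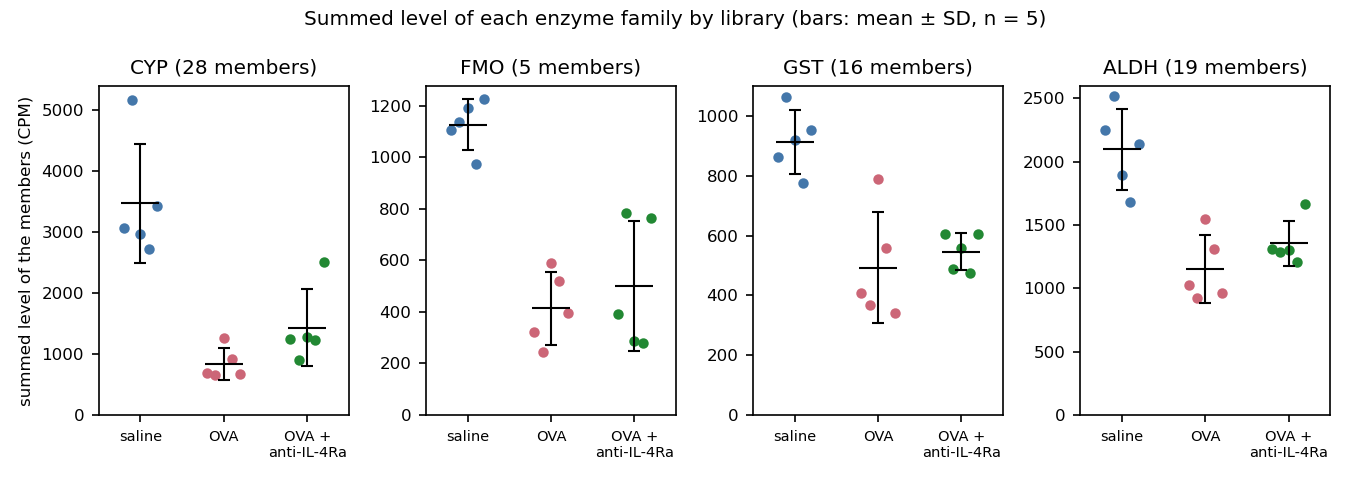
Summed CPM of the members of each family in each of the 15 libraries (points), with mean ± SD of the 5 libraries of a group. The saline libraries lie above the OVA libraries for CYP, FMO and ALDH, and 1 OVA library reaches into the saline range for GST.

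Cyp2f2 was the most abundant CYP gene with saline and had the largest decrease. Per kilobase of the longest GENCODE protein-coding transcript, Cyp2f2 stood first with saline at 1262 CPM per kb, followed by Cyp4b1 at 215 and Cyp2b10 at 115. Cyp2f2 was at 1664, 3818, 2048, 1911 and 2337 CPM in the saline libraries, at 199.5, 295, 602, 406 and 249 CPM in the OVA libraries and at 723, 346, 733, 523 and 1725 CPM in the anti-IL-4Ra libraries. All OVA values lay below all saline values, and anti-IL-4Ra replicate 5 alone reached the saline range. The log2 fold change with OVA was -2.75 ± 0.41 (SE, adjusted p = 0.00023), and no member had a larger decrease. Saline replicate 2 was the highest library for this gene.

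Cyp4b1, which oxidises fatty acids and activates some furans and aromatic amines, was at 383, 529, 409.5, 304 and 412 CPM with saline, at 63.3, 59.3, 144, 109 and 75.1 CPM with OVA and at 92.3, 156, 91.1, 90.7 and 233 CPM with anti-IL-4Ra. Neither OVA group reached the lowest saline library, and the change with OVA was -2.18 ± 0.30 (adjusted p = 0.00013). Cyp2b10, the mouse gene best known as a target of the receptor CAR in the liver, was at 204, 294, 203, 158 and 239 CPM with saline and at 60.9, 51.5, 144, 106 and 73.8 CPM with OVA. The groups did not overlap, and the change was -1.33 ± 0.27 (adjusted p = 0.0015).

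Other CYP2 and CYP4 genes were lower from lower levels. Cyp2d22 fell from 35.1 ± 2.21 to 14.2 ± 4.09 CPM (-1.30 ± 0.21, adjusted p = 0.00041), and Cyp2j9 from 9.90 ± 0.815 to 4.50 ± 1.56 CPM (-1.13 ± 0.25, adjusted p = 0.00275). The arachidonic acid epoxygenase Cyp2c44 fell from 1.13 ± 0.357 to 0.277 ± 0.236 CPM (-1.93 ± 0.49, adjusted p = 0.0068), a level of few counts. Of its 178 counts, 120 came from saline, 19 from OVA and 39 from anti-IL-4Ra libraries. Cyp2c44 thus reached the count minimum for members largely through the saline group, where it was highest. Without OVA replicate 3 its change with OVA was -2.64 (adjusted p = 0.0013). Cyp4f39, which hydroxylates very long fatty acids, fell from 5.71 ± 1.70 to 2.34 ± 0.950 CPM (-1.28 ± 0.32, adjusted p = 0.0057). Cyp2u1 was called at -0.87 ± 0.32 (adjusted p = 0.041), but its groups overlapped, and without any one of OVA replicates 2, 4 and 5 or saline replicates 1, 2 and 3 the adjusted p rose to between 0.0571 and 0.103. Cyp2u1 was also not called with upper-quartile scaling, only the 2 groups compared, the replicate number as a block or the Rn45s covariate.

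Only 1 CYP gene of the 27 tested was higher. Cyp4f18, a leukotriene B4 hydroxylase of myeloid cells, was at 5.98, 5.00, 9.69, 8.71 and 5.07 CPM with saline, at 13.6, 24.4, 13.3, 17.2 and 32.3 CPM with OVA and at 12.9, 13.6, 19.97, 38.6 and 10.5 CPM with anti-IL-4Ra. Each library of both OVA groups was above each saline library. The change with OVA was 1.55 ± 0.36 (adjusted p = 0.0036), and with the Rn45s covariate it was 0.47 (adjusted p = 0.44).

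The CYP1 genes, the classical targets of the aryl hydrocarbon receptor, were not called. Cyp1a1 was at 5.95 ± 2.03 CPM with saline and 6.28 ± 1.26 with OVA (0.08 ± 0.45, adjusted p = 0.90), and Cyp1b1 at 19.5 ± 10.7 and 30.4 ± 9.75 CPM (0.64 ± 0.41, adjusted p = 0.23). Cyp2s1, another airway enzyme, was at 118 ± 46.8 and 73.6 ± 24.2 CPM (-0.68 ± 0.29, adjusted p = 0.071), and it was called without OVA replicate 3, its highest OVA library (-0.94, adjusted p = 0.0161), or without anti-IL-4Ra replicate 2 (-0.72, adjusted p = 0.0363). Cyp2a5 varied widely within each group, from 7.35 to 73.2 CPM with saline and from 7.44 to 53.1 with OVA (-0.62 ± 0.71, adjusted p = 0.51), with a change of -0.03 without saline replicate 2 and of -1.46 without OVA replicate 3. The only CYP3 gene among the members, Cyp3a13, was near 1 CPM (-0.55 ± 0.32, adjusted p = 0.19).

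Cyp2e1, the ethanol-inducible enzyme that fat and liver also express, was at 449, 18.9, 10.6, 35.4 and 97.5 CPM with saline, at 114, 9.03, 11.1, 9.17 and 14.6 CPM with OVA and at 6.39, 10.8, 30.9, 239 and 19.1 CPM with anti-IL-4Ra. Its highest library in each group was the one with the highest summed fat markers of that group (1180, 250.2 and 530.2 CPM). The change with OVA was -1.95 ± 1.16 (adjusted p = 0.20), and without OVA replicate 1 it was -3.48 (adjusted p = 0.044), but without saline replicate 1 it was -0.36 (adjusted p = 0.82). Cyp4a12b was almost confined to a few libraries, with 4.89 and 7.48 CPM in saline replicates 1 and 2, 3.98 CPM in anti-IL-4Ra replicate 5 and at most 1.01 CPM in the other 12.

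The other 12 CYP genes were not called with OVA. Cyp2j6, Cyp2ab1, Cyp4a32, Cyp4f13, Cyp4f15, Cyp4f16, Cyp4f17 and Cyp4v3 had log2 fold changes from -0.52 to -0.11, and Cyp2j13, Cyp2t4 and Cyp4a31 from 0.42 to 0.62. Cyp2j6 was called without OVA replicate 3 or 4 or anti-IL-4Ra replicate 4 or 5 (adjusted p from 0.0335 to 0.0459), and Cyp4v3 without anti-IL-4Ra replicate 4 (-0.35, adjusted p = 0.0435). Cyp2r1, the vitamin D 25-hydroxylase, had 1.05 ± 0.48 (adjusted p = 0.099) at levels under 2 CPM.

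In the FMO family, Fmo2, the main form of the lung in many mammals, was at 658, 686, 825, 659 and 802 CPM with saline, at 202, 159, 398, 322 and 267 CPM with OVA and at 279, 545, 193, 174 and 521 CPM with anti-IL-4Ra. Neither OVA group overlapped the saline group, and the change with OVA was -1.43 ± 0.32 (adjusted p = 0.0028). Within the anti-IL-4Ra group, replicates 2 and 5 stood above the other 3. The same 2 replicates had the lowest Rn45s shares of that group, 3.10 and 1.65% against 9.79 to 12.4% in the other 3. Some of the cell type markers split the same way. Summed endothelial markers were at 4913 and 4500 CPM in replicates 2 and 5 against 2107 to 2517 in the other 3, alveolar type 1 markers at 4930 and 4929 against 2335 to 3108, and goblet cell markers at 1349 and 1513 against 4205 to 13906. Alveolar type 2 markers were at 17335 and 13378 CPM against 6546 to 9362, and red cell markers at 7319 and 3751 against 531 to 3487. Club cell markers did not split this way, at 5290 and 14535 CPM in replicates 2 and 5 and 9651, 11085 and 5370 in replicates 1, 3 and 4. Nor did ciliated cell, macrophage, fibroblast and eosinophil markers. The part of the Rn45s share and of these markers in the result was not tested.

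Fmo1, which oxidises a broad range of amines and sulfides, was also highest in replicates 2 and 5 of the anti-IL-4Ra group. It was at 369.7, 339.6, 299.9, 255 and 350.1 CPM with saline, at 93.3, 63.0, 153, 163 and 101 CPM with OVA and at 77.6, 208, 61.6, 76.4 and 174 CPM with anti-IL-4Ra. The groups did not overlap in either comparison with saline, and the change with OVA was -1.49 ± 0.33 (adjusted p = 0.0028).

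Fmo5, which acts as a Baeyer-Villiger monooxygenase, fell from 40.4 ± 5.78 to 22.9 ± 3.50 CPM without overlap (-0.82 ± 0.15, adjusted p = 0.0011). Fmo4 was at 3.00 ± 0.280 and 1.83 ± 0.632 CPM and was not called (-0.72 ± 0.28, adjusted p = 0.058), whereas DESeq2 (adjusted p = 0.035) and limma voom (adjusted p = 0.0367) called it, as did edgeR without anti-IL-4Ra replicate 2, 3 or 4 or OVA replicate 5 (adjusted p from 0.0275 to 0.0482). Per kilobase with saline Fmo2 was at 179 CPM per kb, Fmo1 at 135, Fmo5 at 7.78 and Fmo4 at 1.12. With the Rn45s covariate no FMO gene was called, and the changes were -0.59 for Fmo1 and -0.51 for Fmo2 and Fmo5.

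**Figure D3:**
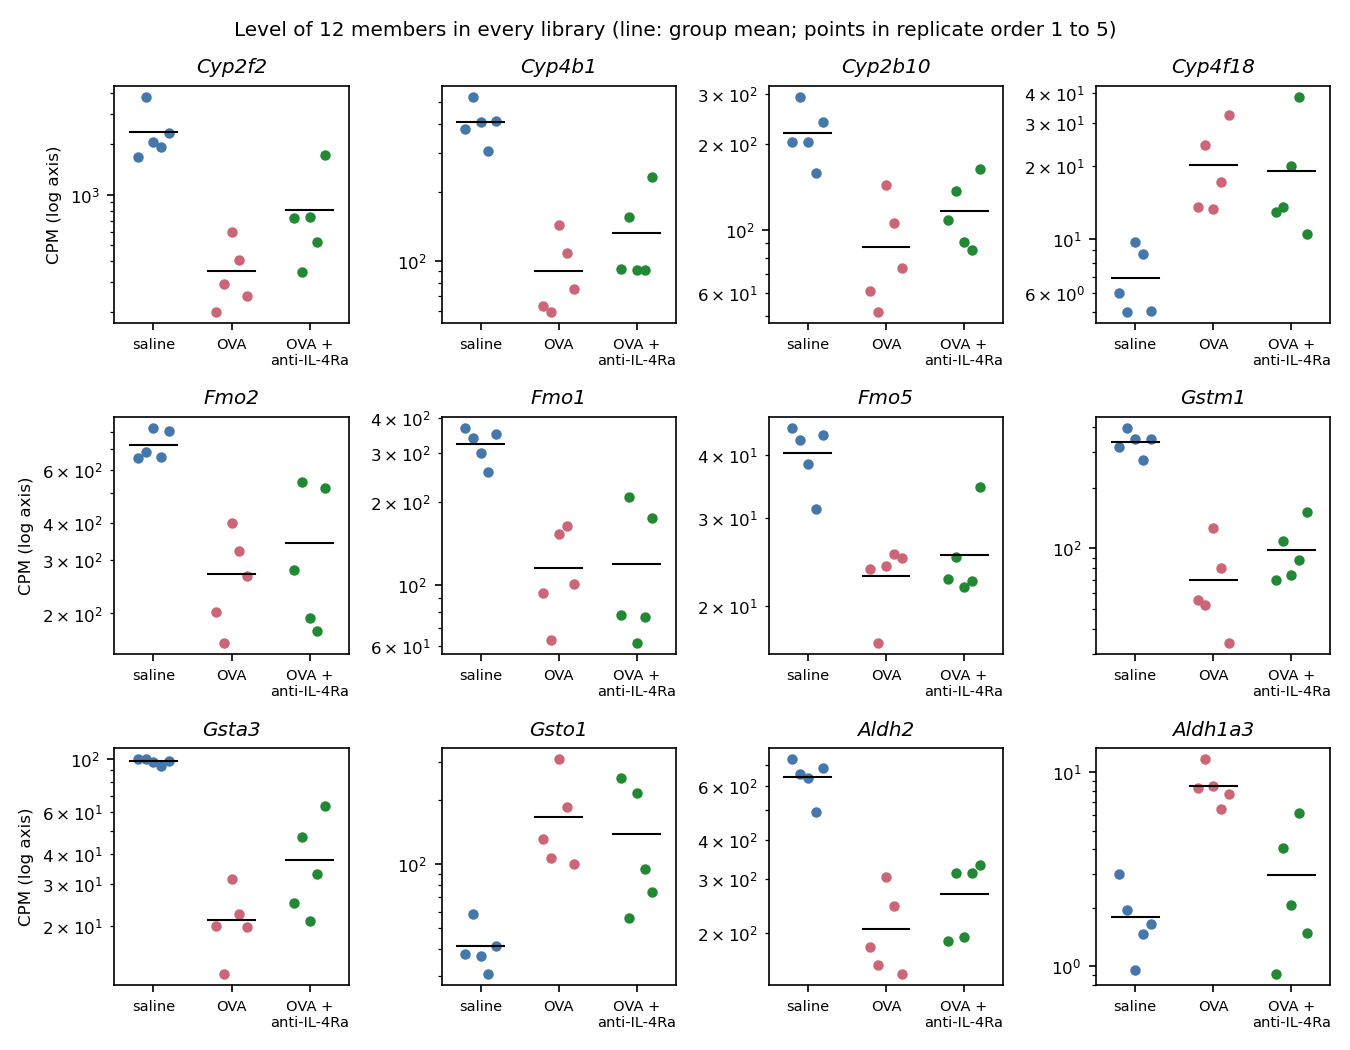
CPM (log axis) of 12 members in each library, by group, with the group mean as a line. Cyp2f2, Cyp4b1, Cyp2b10, the 3 Fmo genes, Gstm1, Gsta3 and Aldh2 are lower and Cyp4f18, Gsto1 and Aldh1a3 higher in all OVA libraries than in all saline libraries.

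In the GST family decreases were called in 4 classes and an increase in the omega class. Of 6 mu genes 4 were lower, of 3 alpha genes 2, of 2 pi genes 1 and of 3 theta genes 1, and 1 of 2 omega genes was higher. Gstm1, which conjugates epoxides and other electrophiles, was at 317, 396, 348, 273 and 348 CPM with saline, at 55.4, 52.5, 126, 79.7 and 33.8 CPM with OVA and at 69.3, 109, 73.9, 87.5 and 152 CPM with anti-IL-4Ra. No library of either OVA group reached a saline library, and the change with OVA was -2.27 ± 0.30 (adjusted p = 8.7e-05).

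Gsta3, an alpha-class enzyme known for its action on the epoxide of aflatoxin, had an SD of 2.53 CPM over the saline libraries. It was at 99.7, 100.3, 97.0, 93.9 and 97.9 CPM with saline, at 20.007, 12.6, 31.6, 22.4 and 19.8 CPM with OVA and at 25.0, 47.2, 20.9, 33.2 and 63.4 CPM with anti-IL-4Ra. The change with OVA was -2.20 ± 0.28 (adjusted p = 6.0e-05). Gsta4, which conjugates the lipid aldehyde 4-hydroxynonenal, was at 59.9 ± 13.5 and 41.3 ± 22.3 CPM and was not called (-0.53 ± 0.30, adjusted p = 0.18). OVA replicate 3, at 77.5 CPM, was the only OVA library inside its saline range, and without it the change was -0.94 (adjusted p = 0.0093).

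Of the other mu genes, 3 were called lower. Gstm2 fell from 159.9 ± 20.1 to 59.2 ± 17.8 CPM (-1.43 ± 0.20, adjusted p = 0.00015), Gstm7 from 5.81 ± 0.804 to 2.07 ± 0.996 CPM (-1.47 ± 0.29, adjusted p = 0.0014) and Gstm6 from 3.95 ± 1.15 to 1.58 ± 0.594 CPM (-1.31 ± 0.35, adjusted p = 0.0086). Gstm5 (-0.68, adjusted p = 0.0611) and Gstm4 (-0.34, adjusted p = 0.104) were not called. Gstm5 was called by DESeq2 (adjusted p = 0.0413), by limma voom (adjusted p = 0.0493) and without OVA replicate 3 (-0.89, adjusted p = 0.0238) or anti-IL-4Ra replicate 2 (-0.72, adjusted p = 0.0402), and Gstm4 without OVA replicate 5 (-0.43, adjusted p = 0.0496). Gstt1, which acts on small halogenated compounds, fell from 50.1 ± 5.33 to 18.04 ± 8.15 CPM (-1.47 ± 0.30, adjusted p = 0.0017), beside -0.35 for Gstt3 and 0.06 for Gstt2, which were not called. Gstt3 was called without OVA replicate 3 or 4 or anti-IL-4Ra replicate 2 or 4 (adjusted p from 0.0383 to 0.0485). Gsta2 fell from 3.68 ± 1.01 to 1.07 ± 0.608 CPM (-1.76 ± 0.36, adjusted p = 0.0018).

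Gsto1, whose product reduces dehydroascorbate and deglutathionylates proteins, was at 38.2, 58.7, 37.4, 30.5 and 41.6 CPM with saline, at 131, 107, 311, 184 and 99.99 CPM with OVA and at 253, 56.0, 214, 94.7 and 74.2 CPM with anti-IL-4Ra. All OVA libraries were above all saline libraries, and anti-IL-4Ra replicate 2 lay inside the saline range. The change with OVA was 2.01 ± 0.41 (adjusted p = 0.0018). Its neighbour Gsto2 was at 0.748 ± 0.163 and 0.804 ± 0.210 CPM (0.11 ± 0.30, adjusted p = 0.80).

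Gstp1, the pi-class enzyme found in many epithelia, fell from 88.04 ± 7.19 to 56.0 ± 8.73 CPM (-0.65 ± 0.12, adjusted p = 0.00077), beside -0.05 ± 0.17 (adjusted p = 0.83) for Gstp2. Both values are uncertain as values of single genes, since 62.3% of the 50-base windows of the longest Gstp1 transcript also occur in Gstp2. RSEM divides reads that fit several genes by an estimate, and 14 of the 68 members shared at least 10% of their windows with another gene. The share was 64.2% for Gsta2 (44.8% with Gsta1), 45.0% for Aldh4a1 (with the gene model Gm21969), 40.8% for Cyp2a5 (31.0% with Cyp2a4), 23.1% for Gstm1 (17.3% with Gstm2-ps1) and 10.3% for Cyp4b1. It was 0 for Cyp2f2, Fmo1, Fmo2, Gsta3, Gsto1 and Aldh2.

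Aldehyde dehydrogenases split by gene. Aldh2, the mitochondrial enzyme that clears acetaldehyde, was at 736, 658, 638, 493 and 686 CPM with saline, at 179, 157, 304, 243 and 146 CPM with OVA and at 187, 313, 194, 312 and 333 CPM with anti-IL-4Ra. Neither OVA group overlapped the saline group, and the change with OVA was -1.64 ± 0.22 (adjusted p = 0.00011). It was the largest decrease among the 8 ALDH genes called lower.

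The 3 tested genes for retinaldehyde oxidation, the step that makes retinoic acid, differed in their calls. Aldh1a1, the most abundant ALDH per kilobase with saline (316 CPM per kb, ahead of Aldh2 at 166), was at 626, 1070.3, 674, 594 and 757 CPM with saline, at 313, 269, 609, 470.2 and 312 CPM with OVA and at 561, 416, 528, 291 and 734 CPM with anti-IL-4Ra. OVA replicate 3 lay inside the saline range, and the change with OVA was -0.91 ± 0.26 (adjusted p = 0.013). Aldh1a2 was at 67.4 ± 9.09 and 57.1 ± 16.7 CPM and was not called (-0.24 ± 0.28, adjusted p = 0.52).

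Aldh1a3 went the other way at a low level. It was at 2.97, 1.94, 0.959, 1.47 and 1.65 CPM with saline, at 8.34, 11.7, 8.51, 6.43 and 7.69 CPM with OVA and at 0.909, 4.06, 2.06, 6.19 and 1.48 CPM with anti-IL-4Ra. The OVA libraries lay above all libraries of both other groups, and the change with OVA was 2.23 ± 0.42 (adjusted p = 0.0011), the largest increase of any member. With the Rn45s covariate it was 1.68 (adjusted p = 0.096). Aldh1a7, the neighbour and close relative of Aldh1a1, was at 115 ± 28.04 and 125 ± 23.8 CPM (0.12 ± 0.20, adjusted p = 0.66).

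A pair of ALDH genes with roles in biosynthesis and folate metabolism were also higher. Aldh18a1, which makes the proline precursor from glutamate, was at 14.6 ± 0.703 CPM with saline and 30.8 ± 8.39 with OVA (1.08 ± 0.19, adjusted p = 0.00079). Aldh1l2, the mitochondrial enzyme that oxidises formyl-tetrahydrofolate, was at 2.67 ± 1.06 and 7.70 ± 1.62 CPM (1.52 ± 0.33, adjusted p = 0.0024). In both, all OVA libraries were above all saline libraries.

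Enzymes of amino acid breakdown were among the lower ALDH genes. Aldh6a1, of valine catabolism, fell from 106 ± 51.7 to 40.7 ± 12.1 CPM (-1.38 ± 0.29, adjusted p = 0.0019), and Aldh4a1, of proline catabolism, from 40.6 ± 21.2 to 19.3 ± 3.99 CPM (-1.07 ± 0.29, adjusted p = 0.0096). Both were highest in saline replicate 1, the library with the most fat markers, at 193 and 78.4 CPM. Without that library the change of Aldh4a1 was -0.69 (adjusted p = 0.027). Aldh7a1, of lysine catabolism, fell from 50.8 ± 6.38 to 30.2 ± 4.30 CPM (-0.75 ± 0.15, adjusted p = 0.0012).

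Aldh3a2, the fatty aldehyde dehydrogenase, fell from 118 ± 12.5 to 80.9 ± 10.8 CPM (-0.55 ± 0.12, adjusted p = 0.0028). Aldh3b1 was called at -0.58 ± 0.18 (adjusted p = 0.022) with overlapping groups, and was not called without OVA replicate 1 (-0.47, adjusted p = 0.058). Aldh5a1, of GABA breakdown, was called at -0.51 ± 0.17 (adjusted p = 0.033), and was not called without OVA replicate 1, 2 or 5 or saline replicate 1 (adjusted p from 0.0563 to 0.105). Upper-quartile scaling, the replicate number as a block and the Rn45s covariate also lost the Aldh5a1 call. Not called were Aldh3a1, a major enzyme of the cornea (-0.98 ± 0.48, adjusted p = 0.12; -1.39 and 0.0362 without OVA replicate 3), and Aldh3b2, Aldh1l1, Aldh9a1, Aldh16a1 and Aldh1b1, with log2 fold changes of -2.10, -0.67, -0.23, 0.33 and 0.54. Without saline replicate 1 the change was -0.03 for Aldh3b2 and -0.18 for Aldh1l1, and Aldh1b1 was called (0.83, adjusted p = 0.0151).

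Many members lie beside others in the genome, by the order of RefSeq genes with at most 15 protein-coding genes between them. Of the 6 Gstm genes 4 were lower with OVA. In the group of Cyp2s1, Cyp2b10, Cyp2a5, Cyp2f2 and Cyp2t4, 2 were lower, with changes from -2.75 to 0.42. In the group of Cyp4f39, Cyp4f17, Cyp4f16, Cyp4f15 and Cyp4f13, 1 was lower. The neighbours Gsto1 and Gsto2, and Aldh1a1 and Aldh1a7, each held 1 called gene and 1 that was not called.

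Lists of other genes of the pathway, outside the 4 families, are read beside the 17.8% of all genes that were lower and the 19.3% that were higher with OVA. Of 16 receptors, their partners and electron donors 8 were lower and 1 was higher. The reductase Por was at 307.8 ± 67.1 CPM with saline and 181 ± 54.9 with OVA (-0.77 ± 0.21, adjusted p = 0.0089). Nfe2l2, which encodes the antioxidant regulator NRF2, changed by -0.56 (adjusted p = 0.0042), whereas Ahr, the aryl hydrocarbon receptor, was not called (-0.46, adjusted p = 0.080). Of 28 other enzymes of oxidation, reduction and hydrolysis 12 were lower and none was higher, among them the carboxylesterase Ces1d (-1.61, adjusted p = 0.00028), the lung carbonyl reductase Cbr2 (-1.56, adjusted p = 0.0017) and the microsomal epoxide hydrolase Ephx1 (-1.20, adjusted p = 0.00053).

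Of 22 other conjugating enzymes 9 were lower, with Inmt, an amine methyltransferase of the lung, at -2.20 (adjusted p = 0.0018), and 2 were higher, Gstcd and the prostaglandin D synthase Hpgds (0.97, adjusted p = 0.0016). Of 13 transporters 5 were lower and 1 was higher, and of 10 other P450 genes 2 were lower and 3 were higher. Of 16 targets of NRF2 that are not members, 5 were lower, among them Nqo1 (-1.48, adjusted p = 0.00048), and 3 were higher: the cystine carrier Slc7a11 (2.25, adjusted p = 9.5e-06), Gclc (1.04, adjusted p = 0.0011) and Hmox1 (0.66, adjusted p = 0.0081).

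Cell type markers moved with the groups as well, and their part in the members' changes was not tested. Of 10 club cell markers 5 were lower with OVA and 1 was higher, and their summed level ranged from 10944 to 25864 CPM in saline, from 3993 to 10817 in OVA and from 5290 to 14535 in anti-IL-4Ra libraries. Scgb1a1, the defining club cell gene, changed by -1.59 (adjusted p = 0.0039), and the median log2 fold change of the 10 club cell markers was -0.68. All 11 goblet cell markers were higher. Lower were 7 of 9 alveolar type 2 markers, 9 of 10 alveolar type 1 markers, 13 of 14 endothelial markers and 1 of 14 ciliated cell markers.

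Markers of infiltrating and stromal cells were mixed. Of 13 macrophage markers 7 were higher and 4 lower, among the 7 for eosinophils 5 were higher and 2 lower, and of 12 fibroblast and mesothelial markers 2 were higher and 6 lower. Of 8 red cell markers 7 were lower, of 9 heart muscle markers 1 was lower, and of 6 fat markers none was called. Liver markers summed to 13.0 to 71.5 CPM in all libraries, with 3 of 10 abundant enough to test and 1 of them higher.

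No member passed the threshold between the 2 groups that received OVA. Between the anti-IL-4Ra and OVA groups, 0 of 67 members were called in edgeR at an adjusted p under 0.05, beside 0.302% of all genes (0.138% higher and 0.163% lower). Before adjustment, 6 members had a p under 0.05, 4 with a positive and 2 with a negative change, beside 5.68% of all genes. DESeq2 called 1 member, Aldh1a3, and limma voom called 0. The median log2 fold change of the members was 0.14, with 49 of 67 above 0, beside -0.00 over all genes. Values above 0 were found for 17 of 27 CYP, 12 of 16 GST and 15 of 19 ALDH genes. The OVA libraries are the same as in the comparison with saline and enter with opposite sign. Low values in them move the 2 comparisons in opposite directions, so these signs are not independent of the decreases with OVA.

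The smallest p belonged to Aldh1a3, the member with the largest increase in OVA lungs. Both comparisons use the same OVA libraries, with opposite sign, so that increase and a decrease here are not independent. The log2 fold change of Aldh1a3 between anti-IL-4Ra and OVA was -1.53 ± 0.42 (adjusted p = 0.24 in edgeR, 0.029 in DESeq2). Without anti-IL-4Ra replicate 4, the highest of its group at 6.19 CPM, edgeR called it at -1.97 (adjusted p = 0.042). It was the only member whose anti-IL-4Ra and OVA libraries did not overlap, as was the case for 1.17% of all genes. The remaining lower value at an unadjusted p under 0.05 was that of Aldh1b1 (-0.73 ± 0.27, adjusted p = 0.62).

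The largest positive value was that of Cyp2f2, 1.21 ± 0.39 (adjusted p = 0.46). Group means were 810.1 ± 536 CPM with anti-IL-4Ra and 350.2 ± 160.0 CPM with OVA. The highest library was anti-IL-4Ra replicate 5, at 1725 CPM. Leaving out 1 library at a time gave Cyp2f2 changes from 0.73 to 1.52, none of them called. Gsta3 had 0.83 ± 0.27 (adjusted p = 0.45), Gsta2 0.83 ± 0.37 (adjusted p = 0.815) and Aldh3b1 0.45 ± 0.18 (adjusted p = 0.72), all 3 with overlapping groups. Gsto1 (-0.27 ± 0.40), Cyp4f18 (-0.07 ± 0.35), Aldh1l2 (-0.26 ± 0.32) and Aldh18a1 (0.05 ± 0.19), all higher with OVA than with saline, were not called. A value that misses the threshold with 5 animals a group does not show that the antibody left the gene unchanged.

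**Figure D4:**
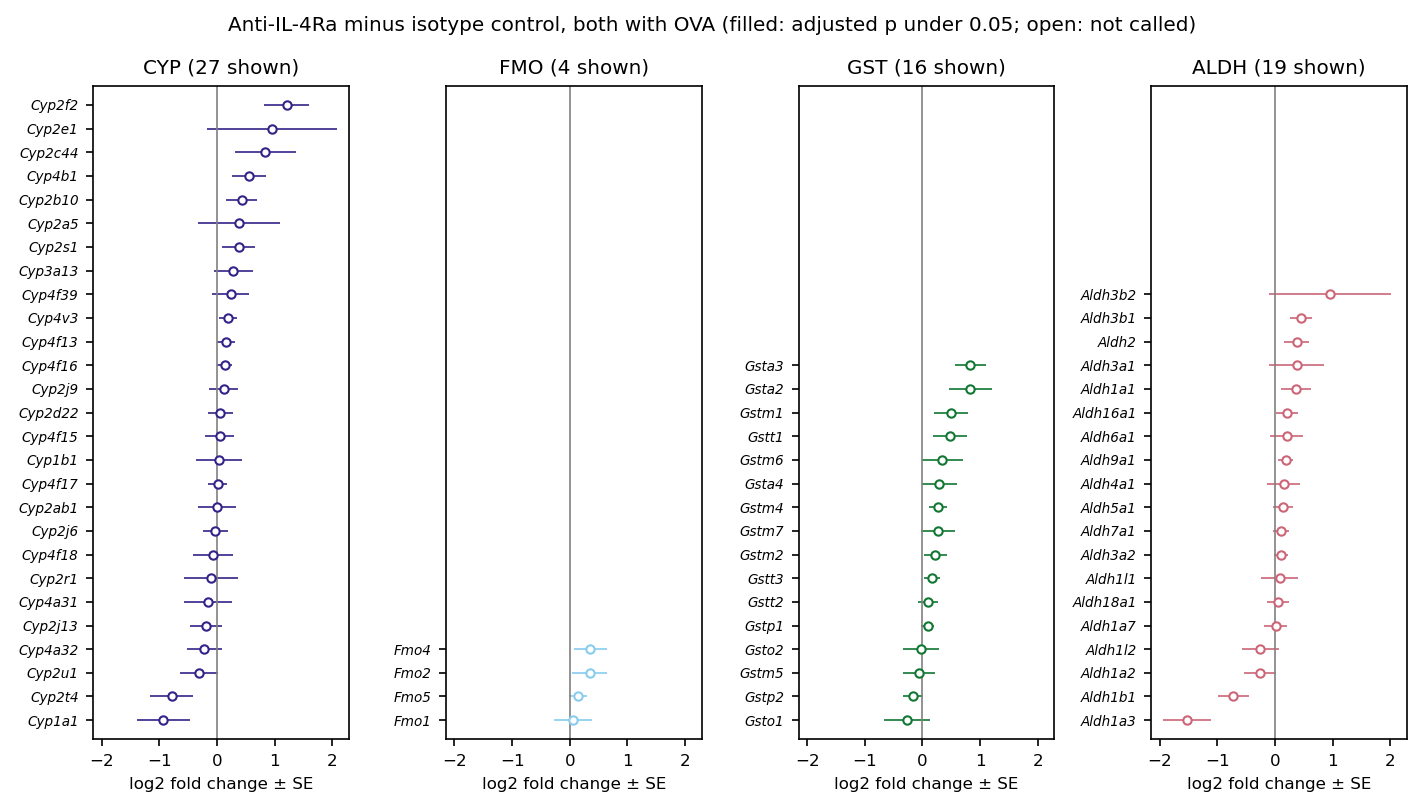
Log2 fold change (± SE) of 66 of the 67 members tested, anti-IL-4Ra minus isotype control, both with OVA, by family. No point had an adjusted p under 0.05, and Aldh1a3 at -1.53 and Cyp2f2 at 1.21 lie farthest from 0.

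Against saline, many of these enzymes were also lower in the anti-IL-4Ra group. Of 67 members 22 (32.8%) were lower and 5 (7.46%) were higher, beside 12.7% and 13.9% of all genes. The saline libraries are the same as in the OVA comparison, so the counts of the 2 comparisons are not independent. By family, 7 CYP, 3 FMO, 7 GST and 5 ALDH genes were lower, and 1 CYP, 1 GST and 3 ALDH genes were higher. The groups did not overlap for 18 members, beside 19.8% of all genes. With the Rn45s covariate 0 members were called, beside 0.321% of all genes lower and 2.02% higher.

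The largest decreases among the members called lower were those of Gstm1 (-1.77 ± 0.29, adjusted p = 0.00078), Cyp4b1 (-1.62 ± 0.30, adjusted p = 0.0016), Cyp2f2 (-1.54 ± 0.40, adjusted p = 0.011), Fmo1 (-1.43 ± 0.33, adjusted p = 0.0059) and Gsta3 (-1.36 ± 0.27, adjusted p = 0.0023). Aldh2 followed at -1.26 ± 0.22 (adjusted p = 0.0011), Cyp2d22 at -1.24 ± 0.21 (adjusted p = 0.00095), Gstm2 at -1.21 ± 0.20 (adjusted p = 0.00084) and Gstm7 at -1.20 ± 0.28 (adjusted p = 0.0068). Side by side with the OVA comparison, which shares the saline libraries, Cyp2f2 had -2.75 and -1.54, Gsta3 -2.20 and -1.36, and Fmo1 -1.49 and -1.43. Leaving out 1 library at a time, the change of Cyp2f2 between anti-IL-4Ra and saline ranged from -2.02 to -1.33.

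Fmo2 was also called (-1.08 ± 0.31, adjusted p = 0.019), but not without anti-IL-4Ra replicate 1 (adjusted p = 0.051) or 3 (adjusted p = 0.052). Cyp2b10 (-0.91 ± 0.26, adjusted p = 0.020) was not called without anti-IL-4Ra replicate 3 (adjusted p = 0.057) or saline replicate 2 (adjusted p = 0.050). Gstt1 (-0.99 ± 0.29, adjusted p = 0.022) was not called without anti-IL-4Ra replicate 1 or 3 or saline replicate 5 (adjusted p from 0.0512 to 0.059).

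The 5 higher members against saline were Gsto1 (1.74 ± 0.41, adjusted p = 0.0066), Cyp4f18 (1.47 ± 0.36, adjusted p = 0.0077), Aldh1l2 (1.27 ± 0.33, adjusted p = 0.011), Aldh18a1 (1.13 ± 0.19, adjusted p = 0.00098) and Aldh16a1 (0.54 ± 0.19, adjusted p = 0.045). Aldh16a1 was called in 7 of 23 refits. It was not called with limma voom (adjusted p = 0.069), with no filter on low counts or with only the 2 groups compared. The replicate block and the Rn45s covariate also lost the call. So did leaving out any one of the 5 saline libraries, of OVA replicates 1, 3 and 4 or of anti-IL-4Ra replicates 1, 3 and 4 (adjusted p from 0.0501 to 0.135). Aldh1a3 was not called against saline (0.70 ± 0.42, adjusted p = 0.23). Aldh1a1 was not called either (-0.56 ± 0.26, adjusted p = 0.13), with mean levels of 506 ± 166 CPM with anti-IL-4Ra and 744 ± 192 with saline.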

How the data were processed

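RNA had been sequenced from the lungs of 15 mice in 3 labelled groups of 5, from libraries that keep strand, per the labels' protocols, which name both rRNA depletion and oligo-dT selection. The authors deposited expected counts per gene symbol. The submitters' processing notes name Bowtie2 2.1.0, RSEM 1.2.15 and the build hg38, a human one, although the symbols are those of mouse genes; the annotation and the strand setting of the counting are not named in any source used here, so no gene coordinates are given other than the promoter windows. Between 17.0 and 20.0% of the values of a library were not whole numbers (tolerance 0.005), as RSEM divides reads between similar genes.

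Expected counts were rounded and fitted over all 15 libraries with edgeR 4.0.16 (R 4.3.3; TMM scaling, filterByExpr, quasi-likelihood test, two-sided). Of 24054 genes 15905 were tested, p-values were adjusted over all of them by Benjamini-Hochberg, and genes with an adjusted p under 0.05 were called. CPM use the TMM-scaled totals, and levels per kilobase the longest protein-coding transcript of GENCODE vM21. Alternatives were DESeq2 1.42.0, limma voom 3.58.1, upper-quartile scaling, no filter, only the groups compared, the replicate number as a block, the log2 share of Rn45s as a covariate, totals without Rn45s, other count minimums for members, and leaving out each library. The fit was tested on simulated data with 100 genes changed 2-fold and 100 changed 4-fold in each comparison. Of those changed 2-fold, 68 were called for OVA against saline, 59 for anti-IL-4Ra against OVA and 66 for anti-IL-4Ra against saline. Of those changed 4-fold, 88, 94 and 91 were called in the same order. The values of 1 member are not reported here; it stays in the fits, counts and family sums.

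The members, the lists of other genes and the tests were chosen with earlier results of these data known. Genes named were 25 chosen for their roles, up to 8 members a direction in each comparison with the largest changes among those called without overlap of the groups, every member called between the OVA groups, and the member with the most counts in each family; other members are named to account for the whole set, and other pathway genes were named after their values were seen. No 2 replicates of a group agreed within sampling noise (lowest chi-square per degree of freedom 10.0). Sequence shared between genes was counted over windows of 50 bases of the same transcripts.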

Additional observations from a re-analysis of the deposited data

Results flagged for a closer look

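In 12 of 105 groups of 5 libraries examined (named members and the family sums), 1 library lay farther from the others than Dixon's 95% limit allows. That limit flags about 1 in 20 groups of normally distributed values by chance. CPM need not be normally distributed, and the genes share the same libraries. The 12 flags are therefore not independent and are not read as an excess over chance. Saline replicate 2 stood high for 3 members. It had 163 CPM of Aldh1a7 against 95.5 to 110.4 in the other saline libraries, 28.4 CPM of Aldh3a1 against 5.70 to 12.3, and 201 CPM of Cyp2s1 against 91.0 to 109. Summed airway markers were also highest in this saline library. Club cell markers were at 25864 CPM against 10944 to 16581, and ciliated cell markers at 1319 against 516 to 661. The part of these markers in the high values was not tested.

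Anti-IL-4Ra replicate 5 stood high for 4 members and 2 family sums. It had 1725 CPM of Cyp2f2 against 346 to 733 in the other libraries of its group, 66.8 CPM of Cyp2a5 against 6.86 to 22.6, 34.5 CPM of Fmo5 against 21.8 to 25.0 and 2.94 CPM of Gsta2 against 1.39 to 1.84. Its CYP sum, 68.5% of it from Cyp2f2, was 2519 CPM against 895 to 1287, and its ALDH sum 1666 CPM against 1209 to 1311. This library also had the lowest share of Rn45s of its group, 1.65%, and the part of that was not tested.

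Of the 3 other values set apart, Gstp1 was at 71.4 CPM in anti-IL-4Ra replicate 4 against 54.0 to 58.9. Cyp2a5 was at 53.1 CPM in OVA replicate 3 against 7.44 to 20.4. That library was also the highest OVA library in summed airway markers. Club cell markers were at 10817 CPM against 3993 to 7012, ciliated cell markers at 1201 against 591 to 795, and goblet cell markers at 21861 against 3426 to 11844.5. The part of these markers was not tested. Fmo5 was low in OVA replicate 2, at 16.8 CPM against 23.7 to 25.3.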

How the results depend on the processing

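Of the 33 members called between OVA and saline, 33 kept their direction in every refit, 30 were called in every refit but the one with the Rn45s covariate, and 7 in all. Of the 27 called between anti-IL-4Ra and saline, 26 kept their direction (Aldh16a1 did not) and 20 were called in every refit but that one. With the covariate 0 members were higher and 8 lower between OVA and saline, and 0 higher and 0 lower between anti-IL-4Ra and saline. By family 2 CYP, 0 FMO, 3 GST and 3 ALDH genes were then called between OVA and saline. The covariate moved the OVA median to -0.23 for CYP and -0.51 for FMO, and the anti-IL-4Ra median against saline to -0.29 for GST and -0.17 for ALDH, which was -0.19 without saline replicate 1. The OVA median was -0.33 for CYP without saline replicate 2 and -0.21 for ALDH without saline replicate 1. DESeq2 called 1 member, Aldh1a3, lower between anti-IL-4Ra and OVA, as did edgeR without anti-IL-4Ra replicate 4. The cause of these moves was not tested.

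Leaving out each library in turn gave 5 to 6 members higher and 26 to 34 lower between OVA and saline, 0 higher and 0 to 1 lower between anti-IL-4Ra and OVA, and 4 to 5 higher and 17 to 27 lower between anti-IL-4Ra and saline. By family it gave 8 to 11 CYP, 4 to 5 FMO, 9 to 12 GST and 9 to 12 ALDH genes called between OVA and saline. Same-numbered replicates did not deviate together (correlations from -0.546 to 0.347). With the replicate block, 5 members were higher and 26 lower between OVA and saline, 0 and 0 between anti-IL-4Ra and OVA, and 4 and 19 between anti-IL-4Ra and saline. Members near 1 CPM rest on few counts: 3 counts correspond to 0.109 to 0.299 CPM on the unscaled totals of these libraries, a limit that covers counting error only.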

Other observations

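Outside the 4 families, the enzyme with the largest decrease among the genes listed for oxidation and hydrolysis was Pon1, the paraoxonase, at 47.8 ± 16.9 CPM with saline and 3.05 ± 1.41 with OVA (mean ± SD, n = 5; log2 fold change -3.95 ± 0.54, edgeR adjusted p = 0.000107). The exporters Abcb1a (-1.51, edgeR adjusted p = 0.000235) and Abcc3 (-1.39, edgeR adjusted p = 2.2e-05) were lower with OVA, whereas Abcb1b was higher (0.62, edgeR adjusted p = 0.021). Gnmt, a glycine methyltransferase, was lower (-1.95, edgeR adjusted p = 0.000123).

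Slc7a11, which imports cystine for glutathione synthesis, was the only NRF2 target of the list called between anti-IL-4Ra and OVA, and it was lower with anti-IL-4Ra (-1.34, edgeR adjusted p = 0.00479). These genes were chosen after their values were seen.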
